A study of Mus musculus with 6 samples.

Results

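Genes for the proteins of the cytosolic and the mitochondrial ribosome were examined in microglia lacking Nus1. They were taken by gene symbol, as rows whose symbol starts with Rpl, Rps, Mrpl or Mrps and a digit, or with Rplp, or is Rpsa, without the Rps6k kinases and Rps27l. This gave 83 of the 4656 rows of the deposited table, 39 of them cytosolic (23 of the large and 16 of the small subunit by symbol) and 44 mitochondrial (27 large and 17 small). Of the 39 cytosolic members, 2 carry the prefix without being structural ribosomal proteins. Rpl7l1 is a nucleolar paralog of Rpl7 that takes part in large subunit assembly, and Rps19bp1 is a binding partner of Rps19 also known as an activator of the deacetylase Sirt1.

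The study compared messenger RNA of primary microglia (brain-resident macrophages) between adult mice of 2 genotypes, Nus1fl/fl (Ctrl, 3 libraries) and Nus1cKO (cKO, 3 libraries). Nus1 encodes a subunit of the enzyme that makes the lipid precursor of dolichol, which carries sugars for protein glycosylation. Mice were given tamoxifen, which activates inducible forms of Cre recombinase, as 5 daily intraperitoneal injections of 100 mg/kg that began at postnatal day 28, and microglia were isolated from perfused brains with a flow cytometer 30 days after the last dose, with no difference between groups stated. The labels also describe a culture medium with serum and do not say if cells were cultured before sequencing. No source used here gives the Cre driver, the Cre status of Ctrl mice, the sex of the mice or the number of animals per library, and p-values cover only the spread among these libraries.

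A cell builds 2 kinds of ribosome. The cytosolic ribosome translates the messengers of nuclear genes, and messengers of its own proteins carry a run of pyrimidines at the start of the transcript, the 5′ TOP (terminal oligopyrimidine) tract, through which their translation and stability respond to the mTORC1 kinase. The mitochondrial ribosome translates the few messengers of the mitochondrial genome, all for subunits of the respiratory chain and ATP synthase, while its own proteins are encoded in the nucleus and imported. Some of its proteins descend from the bacterial ribosome and others exist in mitochondria only.

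Nus1 was measured at 59.43, 60.87 and 59.21 TPM (the transcript's length-scaled share of its library) in Ctrl and at 14.12, 13.62 and 13.82 TPM in cKO. Every cKO library was below every Ctrl library. The rows summed to between 10786150 and 11033144 estimated reads a library and held 59.4% to 60.3% of the TPM total. Of 10 microglial markers 6 had a row, with summed levels of 1241 to 1313 TPM in Ctrl and 1161 to 1232 TPM in cKO. Most of this sum was Tyrobp (mean 788 TPM in Ctrl and 731 TPM in cKO), and single markers went apart, with Itgam at 61.6 and 101 TPM, C1qa at 74.3 and 45.4 TPM and Cx3cr1 at 15.98 and 10.99 TPM. Markers of astrocytes, endothelium, and monocytes and granulocytes had 1 row of 5 each, at no more than 0.78 TPM in any library, and those of neurons, oligodendrocytes, and T and B cells had none. Ly6c2, the monocyte row, stood at 0 in Ctrl and at 0.55 to 0.71 TPM in cKO, Pecam1 of endothelium at 0.15 to 0.42 and 0.51 to 0.78 TPM, and Aldh1l1 of astrocytes at 0.34 to 0.42 and 0 to 0.16 TPM. The part of such cells in the results was not tested. In such bulk libraries, fewer cells of a type and less RNA per cell cannot be told apart.

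Every row had an authors' q-value under 0.05, and the q-values correspond to 15835 genes tested, of which the rows are 29.4%. A member with a row was therefore called by selection, and the number called is no result about the members. Of 77 cytosolic ribosomal protein genes listed by name 37 had a row (48.1%), and of 77 mitochondrial ones 44 (57.1%). The others were not called or not tested, which these files do not separate. What can be read is the direction of the change in the called members, and its size among changes large enough to be called. The median level was 2478 TPM for cytosolic and 89.7 TPM for mitochondrial members, and smaller changes can be called at higher levels. The part of this in the sizes given below was not tested. Groups that do not overlap are no result about a single member either. Over all rows, 46.3% were higher and 53.1% lower in cKO without overlap.

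The promoters and transcript starts of the members are shown first, since the TOP tract is the feature that marks cytosolic ribosomal protein messengers. RefSeq windows of 250 bases before to 50 bases after the annotated start (mouse GRCm38.p6) existed for 27 of the 39 cytosolic and 40 of the 44 mitochondrial members. A TOP-like tract was defined as C followed by at least 7 C or T on the sense strand, beginning within 50 bases of the annotated start. It was present in 19 of 27 cytosolic windows (70.4%) and in 14 of 40 mitochondrial windows (35.0%), against 1149 of 3756 windows of the other rows (30.6%) and 31.5% of all 27025 gene windows. Annotated starts were not measured in these cells, and a tract away from the start is a match of letters only. In the following stretches, capitals mark the TOP-like tract, and the genes are the cytosolic members with large changes or high levels whose window held one, and 2 mitochondrial members with a tract.
Rpl12 (chr2:32961732-32961761, plus strand): ggaggaggcaacggtgcaaCTTTCTTCggt
Rpl22 (chr4:152325679-152325708, plus strand): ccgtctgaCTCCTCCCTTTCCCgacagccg
Rpl9 (chr5:65391382-65391411, minus strand): cgaaagacgttCTCTCTTTgccccatctac
Rps18 (chr17:33955648-33955677, minus strand): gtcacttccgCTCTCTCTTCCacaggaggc
Mrps6 (chr16:92058344-92058373, plus strand): ccggccgtgttCCTCTCTCgtcttcctctg
Mrpl12 (chr11:120484617-120484646, plus strand): cggacagctcgCCTCCTCCCggatagagcg

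The Rps18 tract runs across the annotated start, beginning at base -2. That of Rpl22 begins at -39 and those of Rpl12 and Rpl9 at 40 and 32 after the start. Motifs of factors known for housekeeping and mitochondrial genes were searched on both strands of the whole window. The ETS core CCGGAAG, bound by ETS family factors such as GABP, was found in 29.6% of cytosolic and 35.0% of mitochondrial windows, against 21.0% for the other rows and 9.93% for all genes. The YY1 core AAGATGGCG was found in 7.41% and 15.0%, against 4.10% and 1.64%, and the NRF1 core GCATGCGC in 3.70% and 10.0%, against 6.47% and 3.05%. No member window had an ETS core that overlapped a TOP-like tract. Below, capitals mark the ETS core in Mrpl34, the member with the largest fall, and the YY1 core in Mrpl42, the mitochondrial large subunit member with the highest level.
Mrpl34 (chr8:71464877-71464906, plus strand): gaactacagctcCCGGAAGgccccgcggca
Mrpl42 (chr10:95501904-95501933, minus strand): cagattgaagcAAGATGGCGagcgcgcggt

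Among the called genes, messengers of most cytosolic members were slightly more abundant in cKO and those of the mitochondrial members less abundant. Ribosomal protein genes without a row are not covered. In edgeR's quasi-likelihood test, with counts scaled by the authors' size factors and Benjamini-Hochberg adjustment over 15835 genes, 36 of the 39 cytosolic members rose and 3 fell, and 0 of the 44 mitochondrial members rose and 44 fell. Over all 4640 rows tested, 2154 rose (46.4%) and 2486 fell (53.6%), all at an adjusted p under 0.05. The median log2 fold change was 0.10 for the cytosolic and -0.25 for the mitochondrial members, beside -0.12 over all rows tested. Without Rpl7l1 and Rps19bp1, 36 of 37 cytosolic members rose, with a median of 0.10. Both medians kept their sign under every scaling tried, while their size depended on it: they came to 0.18 and -0.16 with upper-quartile scaling from the rows. Calls depended on it too. With RLE scaling 2155 rows rose and 1870 fell, with 36 cytosolic members higher and 34 mitochondrial members lower, and with upper-quartile scaling 2155 rows rose and 1730 fell, with 36 and 32 members.

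**Figure D1:**
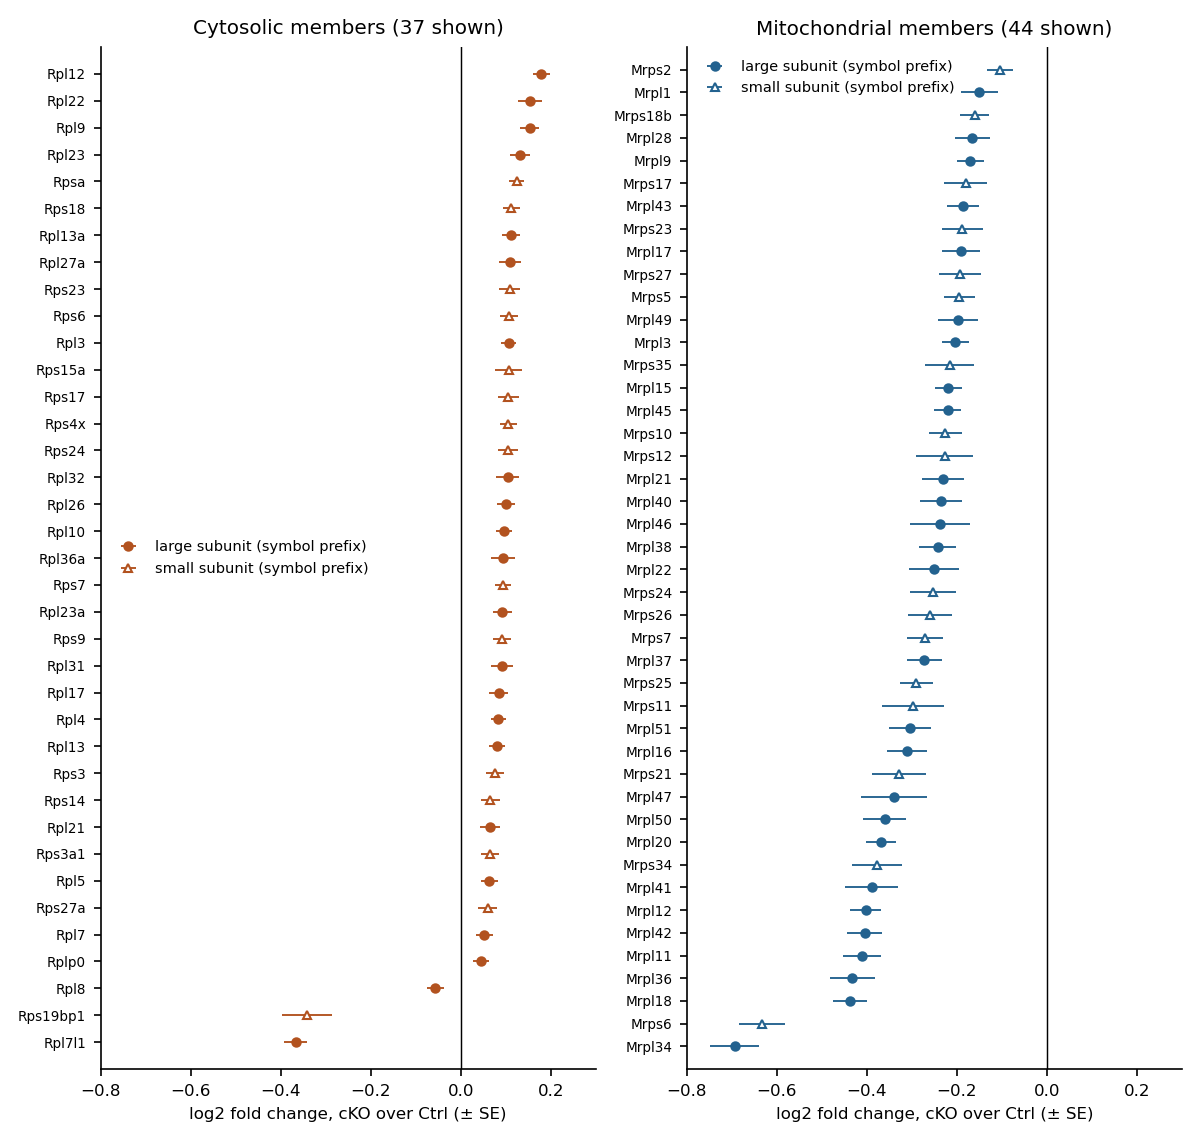
Log2 fold change of 37 cytosolic and 44 mitochondrial members, cKO over Ctrl (x axis, bars: standard error), with cytosolic members on the left, mitochondrial members on the right and the subunit given by the symbol prefix. The cytosolic values above 0 lie close together, up to 0.18 for Rpl12, with Rpl8, Rps19bp1 and Rpl7l1 below 0 (Rpl8 turned positive with RLE and upper-quartile scaling); the mitochondrial values spread from -0.10 for Mrps2 to -0.69 for Mrpl34.

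On the scale of the authors' size factors, the middle 50% of cytosolic members lay between 0.07 and 0.11 on the log2 scale, and that of mitochondrial members between -0.35 and -0.20. On the same scale, a change of at least 0.2 in either direction was seen in 2 of 39 cytosolic members, Rpl7l1 and Rps19bp1, and in 32 of 44 mitochondrial members. A change of at least 0.4 was seen in 0 cytosolic and 7 mitochondrial members. Only called members are counted, and smaller changes can be called at the higher levels of the cytosolic set. The part of this selection in these counts and medians was not tested. By subunit, the medians were 0.09 for the large and 0.11 for the small cytosolic subunit, and -0.25 and -0.23 for those of the mitochondrial ribosome. Which set moved further depends on the scaling: the medians were 0.17 and -0.17 with RLE scaling, and with upper-quartile scaling the cytosolic one was the larger.

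Normalized counts of the groups did not overlap for 33 cytosolic members that were higher and 3 that were lower in cKO, and for all 44 mitochondrial members, which were lower. Over all rows the share without overlap was 46.3% higher and 53.1% lower. The cytosolic members whose groups overlapped were Rpl31, Rps15a and Rps27a. With 3 libraries a group, the exact permutation test (two-sided) cannot give less than 0.1, and it gave 0.1 for every member whose groups were apart. For the overlapping ones it gave 0.2 (Rpl31), 0.2 (Rps27a) and 0.3 (Rps15a). In TPM, 32 cytosolic members were higher and 2 lower without overlap, and 5 overlapped, Rpl8, Rpl26, Rps14, Rps15a and Rps18. Of the mitochondrial members 43 were lower without overlap in TPM, and 1, Mrpl17, overlapped. The share of all rows without overlap was not computed in TPM, so the TPM counts are no result about the members.

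Summed over members, cytosolic ribosomal protein messengers stood at 96178, 97339 and 95557 TPM in Ctrl and at 107311, 102645 and 106286 TPM in cKO. All cKO libraries were above all Ctrl libraries, with cKO 2 the lowest of its group. As a share of all messengers this was 9.64% ± 0.0904 in Ctrl and 10.5% ± 0.245 in cKO (SD, n = 3 each). The mitochondrial members summed to 5359, 5411 and 5359 TPM in Ctrl and to 4405, 4499 and 4484 TPM in cKO, a share of 0.538% ± 0.00300 and 0.446% ± 0.00500. Again the groups did not overlap. The ratio of the cytosolic to the mitochondrial sum was 17.9, 18.0 and 17.8 in Ctrl and 24.4, 22.8 and 23.7 in cKO. This ratio does not depend on how libraries are scaled to each other, and its mean was 17.9 ± 0.0821 in Ctrl and 23.6 ± 0.775 in cKO. Both sums, and so the ratio, hold only members that the authors called in this same comparison. Ribosomal protein genes without a row are missing from them, and the part of this selection in the separation of the groups was not tested. The summed TPM ratio of cKO over Ctrl was 1.09 for the cytosolic and 0.830 for the mitochondrial members.

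**Figure D2:**
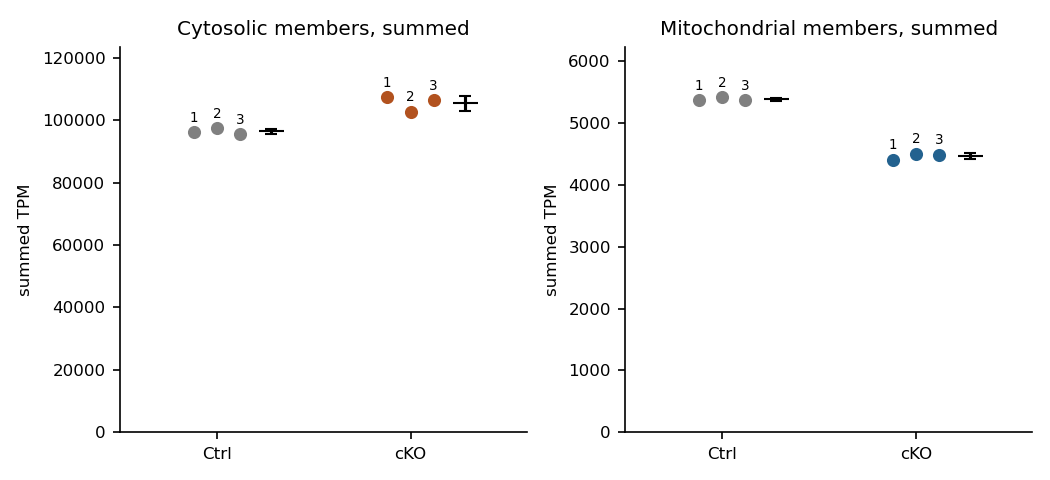
Summed TPM of the cytosolic (left) and mitochondrial (right) members in each library, with points for libraries 1 to 3 of each group and bars for the mean and SD; both y axes start at 0. The 3 cKO libraries sit above the Ctrl libraries on the left, between 102645 and 107311 TPM, and below them on the right, between 4405 and 4499 TPM.

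Among large subunit proteins, Rpl12, part of the stalk base where elongation factors bind, had the largest rise. Its level was 6317.95, 6521.81 and 5976.12 TPM in Ctrl and 7474.09, 6975.59 and 7423.20 TPM in cKO. The groups did not overlap, and the log2 fold change was 0.18 ± 0.02 (SE; edgeR adjusted p = 5.44e-11). Rpl12 lies on chromosome 2 at 32851724 to 32854057 (mm39, per the table). Rpl9 was at 2160.61, 2114.49 and 2128.46 TPM in Ctrl and at 2485.50, 2387.01 and 2424.22 TPM in cKO, and rose by 0.15 ± 0.02 on the log2 scale (edgeR adjusted p = 5.46e-08). Every cKO library was above every Ctrl library. Rpl22, an RNA-binding protein needed for T cell development in mice, had a lower level, at 357.15, 339.50 and 378.49 TPM against 394.24, 429.69 and 395.58 TPM, with a log2 change of 0.15 ± 0.03 (edgeR adjusted p = 5.45e-06). The authors' q-value for Rpl22 was larger, 0.0161.

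Rpl3, which reaches the peptidyl transferase centre, was at 2357.69, 2353.65 and 2370.67 TPM in Ctrl and at 2611.77, 2573.37 and 2598.30 TPM in cKO. Its libraries were nearly alike within each group, and the log2 change was 0.11 ± 0.02 (edgeR adjusted p = 2.21e-06). Rpl23a, a protein at the exit of the nascent chain tunnel, had the highest mean level of all members, 7535 TPM over the 6 libraries, and rose by 0.09 ± 0.02 on the log2 scale. Rplp0, the scaffold of the acidic stalk proteins, had the smallest rise of the large subunit members, 0.05 ± 0.02 (edgeR adjusted p = 0.039). Its levels were 3085.89, 3035.60 and 3015.12 TPM in Ctrl against 3209.16, 3197.18 and 3211.27 TPM in cKO. The call of Rplp0 was lost without Ctrl 2, without Ctrl 3, without cKO 1 or without cKO 3.

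Rpl8, which contacts the peptidyl transferase centre, was the only structural cytosolic protein gene of the table with a lower fitted value. It was at 3727.14, 3697.52 and 3617.56 TPM in Ctrl and at 3591.32, 3622.53 and 3644.69 TPM in cKO, and on this scale the groups overlapped. Its log2 change was -0.06 ± 0.02 (edgeR adjusted p = 0.0142). The direction turned with RLE scaling (0.02, adjusted p = 0.814) and with upper-quartile scaling (0.03, adjusted p = 0.336), and the call was lost with TMM and with reads scaling (adjusted p = 1 in both), without Ctrl 1 or without cKO 1. The assembly factor Rpl7l1, by contrast, was at 155.45, 155.56 and 153.87 TPM in Ctrl and at 125.13, 124.03 and 118.29 TPM in cKO, and fell by 0.37 on the log2 scale (SE 0.03, edgeR adjusted p = 1.21e-15). Its libraries of either group lay close together and far from those of the other group.

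Among small subunit proteins, Rpsa, also known as a laminin receptor, had the largest rise, from 1730.30, 1694.30 and 1704.10 TPM in Ctrl to 1901.12, 1901.73 and 1894.78 TPM in cKO. The log2 change was 0.12 ± 0.02 (edgeR adjusted p = 9.07e-08). Rps18, the small subunit member with the highest level (5337 TPM on average), rose by 0.11 ± 0.02, although its TPM values of the groups overlapped, with 4910.91 to 5223.68 TPM in Ctrl and 5216.78 to 5918.56 TPM in cKO. Rps6, the substrate of the S6 kinases downstream of mTORC1, rose by 0.11 ± 0.02. The smallest rises were those of Rps27a, a ribosomal protein made as a fusion to ubiquitin (0.06 ± 0.02), and Rps3a1 (0.06 ± 0.02). Rps27a lost its call without Ctrl 1, Ctrl 2, cKO 1 or cKO 2, and Rps3a1 without Ctrl 1 or cKO 1.

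Rps19bp1, which is not a ribosome component, was at 99.54, 100.20 and 103.29 TPM in Ctrl and at 82.47, 78.56 and 83.89 TPM in cKO. It fell by 0.34 on the log2 scale (SE 0.06, edgeR adjusted p = 2.36e-06). Rps15a had the lowest mean TPM of the cytosolic members, 84.0, although its normalized counts were between 4154 and 4889, and it was the only cytosolic member in the longest quartile of rows by the gene length behind the authors' TPM. Its TPM value therefore depends on that length. Cytosolic ribosomal protein genes have many near-identical processed pseudogenes, with which reads can be shared. Estimated counts were not whole in at least 1 library for 13 of 39 cytosolic members (33.3%), Rpl12, Rpl9, Rpl23a and Rps15a among them. The same held for 6 of 44 mitochondrial members (13.6%), against 14.4% of all rows. The part of pseudogenes in these fractions was not tested. Values of these genes are uncertain in this respect, and whole counts do not show that no reads were shared.

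In the mitochondrial large subunit, Mrpl34, a counterpart of a bacterial ribosomal protein, fell the most of all members. It was at 186.79, 192.63 and 189.28 TPM in Ctrl and at 126.64, 113.94 and 120.64 TPM in cKO, with no overlap. It fell by 0.69 on the log2 scale (SE 0.05, edgeR adjusted p = 3.89e-14), to 0.618 of the Ctrl level. Mrpl34 lies on chromosome 8 at 71917570 to 71918397 (mm39). Mrpl18, which in human cells also gives rise to a cytosolic form under heat stress, was at 198.87, 212.72 and 205.78 TPM in Ctrl and at 156.45, 154.66 and 162.12 TPM in cKO, and fell by 0.44 on the log2 scale (SE 0.04, edgeR adjusted p = 6.00e-13). Mrpl36 was at 136.28, 137.07 and 118.73 TPM against 100.25, 96.92 and 99.75 TPM, a log2 change of -0.43 ± 0.05 (edgeR adjusted p = 1.52e-09). Ctrl 3 was the lowest of the Ctrl libraries for this gene and still above every cKO library.

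The large subunit members with the highest levels fell by a similar amount. Mrpl42, a protein of the mitochondrial ribosome without a bacterial counterpart, was at 363.60, 354.93 and 364.88 TPM in Ctrl and at 281.73, 275.50 and 280.31 TPM in cKO (log2 change -0.41 ± 0.04, edgeR adjusted p = 1.00e-11). Mrpl12, a stalk protein also known to bind the mitochondrial RNA polymerase, was at 288.02, 292.29 and 302.71 TPM in Ctrl and at 218.70, 236.85 and 226.54 TPM in cKO (log2 change -0.40 ± 0.03, edgeR adjusted p = 3.98e-13). In both, each cKO library lay below each Ctrl library. The smallest falls were those of Mrpl1 (-0.15 ± 0.04), Mrpl28 (-0.17 ± 0.04) and Mrpl9 (-0.17 ± 0.03). Mrpl1 lost its call with RLE (adjusted p = 0.32), upper-quartile (adjusted p = 0.525) and reads scaling (adjusted p = 0.059), and Mrpl28 with RLE (adjusted p = 0.104) and upper-quartile scaling (adjusted p = 0.194).

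In the mitochondrial small subunit, Mrps6 fell by 0.63 on the log2 scale (SE 0.05, edgeR adjusted p = 1.09e-13), from 162.93, 152.43 and 150.08 TPM in Ctrl to 107.11, 101.14 and 98.82 TPM in cKO. The cKO level was 0.645 of the Ctrl level. Mrps6 lies on chromosome 16 at 91855224 to 91909115 (mm39). Mrps34, needed for small subunit stability, fell by 0.38 on the log2 scale (SE 0.06, edgeR adjusted p = 2.58e-07), with 94.15, 100.85 and 90.80 TPM against 73.78, 77.35 and 73.61 TPM. Mrps21, the small subunit member with the highest level, was more variable, at 424.99, 469.80 and 466.78 TPM in Ctrl and 338.52, 376.88 and 404.66 TPM in cKO, and changed by -0.33 ± 0.06 (edgeR adjusted p = 1.46e-05). The groups did not overlap. The smallest falls were those of Mrps2 (-0.10 ± 0.03, edgeR adjusted p = 0.00384), Mrps18b (-0.16 ± 0.03) and Mrps17 (-0.18 ± 0.05). The call of Mrps2 was lost without Ctrl 1 (adjusted p = 0.053) and under each of the 4 scalings estimated from the rows (adjusted p from 0.139 to 1). Mrps18b (adjusted p = 0.0606 and 0.124) and Mrps17 (adjusted p = 0.142 and 0.233) lost theirs with RLE and upper-quartile scaling.

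The mitochondrial members were also divided by origin, from background knowledge. The 26 with a bacterial counterpart had a median log2 fold change of -0.25 (range -0.69 to -0.10), and the 18 found in mitochondria only had one of -0.24 (range -0.41 to -0.16). In 10 protein families with a row on both sides the same ancestral protein was followed in the cytosolic and the mitochondrial ribosome. Their median was 0.10 on the cytosolic and -0.25 on the mitochondrial side, and the difference of log2 fold changes, cytosolic minus mitochondrial, ran from 0.23 to 0.59. It was widest for Rpl12 (0.18) and Mrpl11 (-0.41), the stalk base protein. Rpl5 (0.06), which carries the 5S rRNA in the cytosolic ribosome, and Mrpl18 (-0.44) differed by 0.50, and Rpl3 (0.11) and Mrpl3 (-0.20) by 0.31. The pair closest to each other was Rpsa (0.12) and Mrps2 (-0.10). Since all mitochondrial members of the table fell, opposite signs in these pairs are given by the sets.

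**Figure D3:**
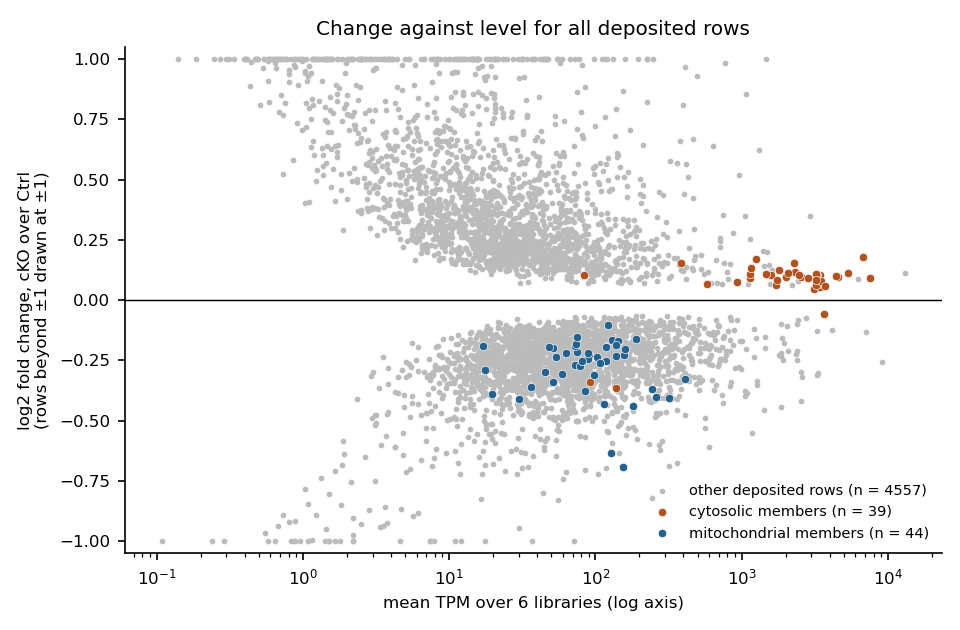
Log2 fold change (cKO over Ctrl, y axis) against the mean TPM over 6 libraries (log x axis) for all rows tested, with cytosolic members in orange, mitochondrial members in blue and the other rows in grey; values beyond 1 in either direction are drawn at 1. The cytosolic members stand at the right, most of them above 1000 TPM and slightly above 0, and the mitochondrial members lie at 17.2 to 414 TPM below 0 (of the cytosolic members Rpl8 changed sign with RLE and upper-quartile scaling).

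Direction varied with level and gene length over the whole table, so the members were set beside rows of like level. Of the cytosolic members 33 had at least 1000 TPM, and 32 of these rose (97.0%), with a median of 0.10. Of the 58 other rows at that level 19 rose (32.8%), with a median of -0.15. The mitochondrial members had mean levels from 17.2 TPM (Mrpl17) to 414 TPM (Mrps21). Among 3145 other rows within these levels 63.0% fell, with a median of -0.16, beside 44 of 44 and -0.25 for the members. Most members are short: 36 cytosolic and 36 mitochondrial members were in the shortest quartile of rows, with medians of 0.10 and -0.25, while among the 1085 other rows of that quartile 35.0% rose, with a median of -0.19. Within the sets, Spearman's rho of the log2 fold change with the mean level was -0.04 over the 39 cytosolic and -0.05 over the 44 mitochondrial genes. With length it was -0.06 and 0.42, so that among mitochondrial members the shorter genes tended to have the larger falls. These are descriptions across genes that share libraries.

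The 653 other rows annotated to the mitochondrion were also set beside the members. Of these 38.6% rose and 61.4% fell (median -0.16 on the log2 scale), against 47.8% rising and a median of -0.11 among 3904 other rows. The share that fell was close to the 63.0% of other rows within the levels of the mitochondrial members, and the difference was not tested.

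The genes that act with the ribosomes were taken from lists. Of 8 ribosomal proteins with other symbols 4 had a row. Rack1, on the head of the cytosolic small subunit, rose by 0.08 ± 0.02 on the log2 scale. The mitochondrial ribosome proteins Ptcd3, Gadd45gip1 and Chchd1 changed by -0.26 ± 0.03, -0.25 ± 0.04 and -0.24 ± 0.05. Each of these 4 moved in the direction of most members of its ribosome, beside 46.4% of all rows tested that rose and 53.6% that fell.

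Cytosolic translation factors and other TOP messengers were mixed. Of 26 listed 20 had a row, of which 12 rose and 8 fell, with a median of 0.07; with upper-quartile scaling from the rows 5 fell, and Naca turned positive. Pabpc1, the poly(A)-binding protein, rose by 0.15 ± 0.02. The initiation factor subunit Eif2s3x changed by -0.28 ± 0.02, the exchange factor subunit Eef1d by -0.25 ± 0.02 and the histone chaperone Nap1l1 by -0.24 ± 0.02. Of 20 listed cap-binding genes and mTORC1 regulators 8 had a row, and 3 rose and 5 fell (3 fell with upper-quartile scaling). Beside the shares over all rows, these counts are no result about the list. Sesn2, an inhibitor of mTORC1 induced by stress, rose by 1.19 ± 0.08 from a low level (7.68 TPM in Ctrl), and Eif4ebp1, the repressor of cap-dependent translation that mTORC1 inactivates, rose by 0.55 ± 0.04. Eif4e, the cap-binding protein, and Eif4g1, its scaffold partner, changed by -0.30 ± 0.02 and -0.34 ± 0.02.

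On the mitochondrial side, most genes with a row fell, beside 53.6% of all rows and 63.0% of other rows at the level of the mitochondrial members, while most listed genes had no row. Of 36 translation and assembly factors 8 had a row (22.2%), and 7 fell and 1 rose (Mterf3, 0.22 ± 0.06, named after its value was seen). Tufm and Gfm1, the elongation factors that deliver tRNA and drive translocation, changed by -0.29 ± 0.03 and -0.25 ± 0.03. Fastkd2 and Noa1, which act in assembly of the mitochondrial ribosome, changed by -0.38 ± 0.04 and -0.26 ± 0.04. Of 20 genes for mitochondrial tRNA charging 8 had a row (40.0%) and 8 fell, with a median of -0.30. Yars2, Mars2, Vars2 and Lars2, which charge the tRNAs for tyrosine, methionine, valine and leucine, changed by -0.45 ± 0.05, -0.41 ± 0.05, -0.27 ± 0.05 and -0.25 ± 0.05. Of 9 mitochondrial transcription and replication genes 2 had a row (22.2%), Tfb2m (-0.32 ± 0.04), a transcription initiation factor, and Twnk (-0.15 ± 0.03), the replicative helicase, and 1 of the 2 was called as lower with RLE or upper-quartile scaling.

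**Figure D4:**
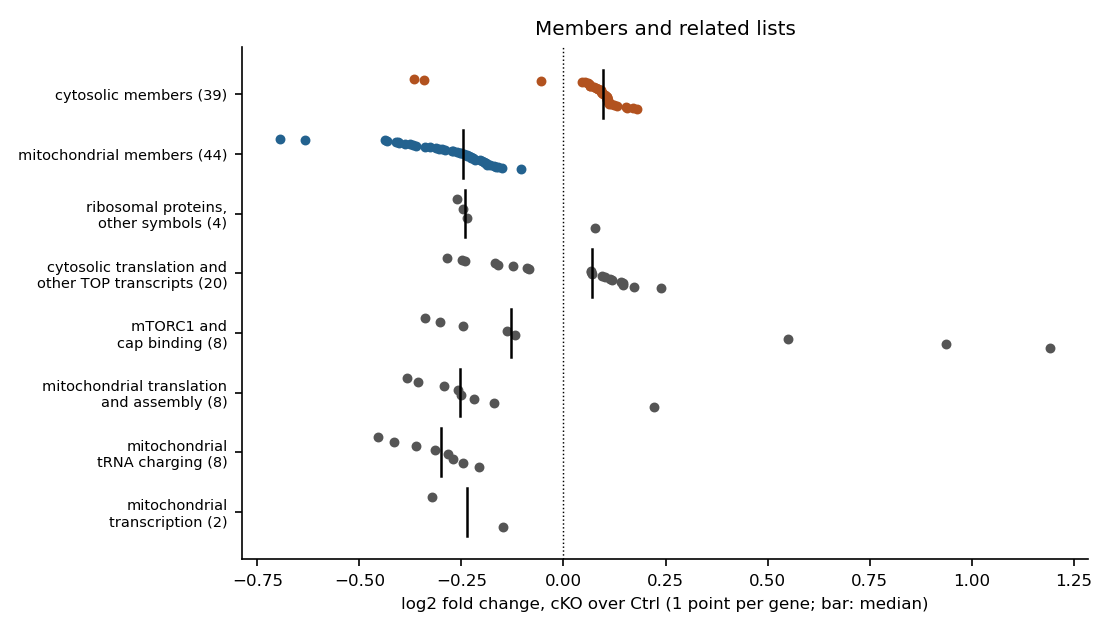
Log2 fold change (cKO over Ctrl, x axis) of the members and of the genes of each related list that had a row, with 1 point per gene, a bar at the median and the number of genes in parentheses. The cytosolic members cluster near 0.10 and the genes with a row for mitochondrial translation, tRNA charging and transcription lie left of 0 apart from Mterf3 (Rpl8, the cytosolic point nearest to 0 on the left, changed sign with RLE and upper-quartile scaling).

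Fold changes were compared with the presence of the motifs shown above. The 19 cytosolic members with a TOP-like tract had log2 fold changes from 0.06 to 0.18 with a median of 0.11, and the 8 without one had a median of 0.07, Rpl7l1 and Rps19bp1 among them. Mitochondrial members with the tract (14) had a median of -0.32 and those without (26) one of -0.24. For the ETS core the mitochondrial medians were -0.23 with it (14) and -0.27 without it (26). The cytosolic ones were 0.1045 (8) and 0.0962 (19). With and without the YY1 core the mitochondrial medians were -0.285 (6) and -0.237 (34). For the NRF1 core they were -0.181 (4) and -0.265 (36). Only 2 cytosolic windows held the YY1 core and 1 the NRF1 core. Tracts that met the same definition, though not of the same sequence, were found in Rpl12, which rose, and in Mrps6 and Mrpl12, which fell. All mitochondrial members of the table fell, so a fall beside a tract is given by the set. The tracts of Rpl12 and Mrps6 begin after the annotated start and are matches of letters only. These genes therefore cannot show if a tract goes with the direction of change. No test of the differences between medians was made.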

How the data were processed

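Messenger RNA of 3 Ctrl and 3 cKO libraries, grouped by the genotype in their titles, was analysed. Bowtie2 2.4.5, DESeq2 1.34.0 and the build mm39 were used by the authors, per the submitters' processing notes (no read counter is named there). Per the file headers, the deposited table gives each gene an estimated (expected) count, an FPKM, a TPM and a normalized count per library, and the authors' log2 ratio, p-value and q-value. Of the deposited expected counts, which are unscaled, 11.1% are not whole (tolerance 1e-06). The deposited FPKM values are scaled by gene length and depth, and the deposited TPM values are shares per length. The deposited normalized counts are a between-library signal: 100% of entries matched rounded-up counts over library size factors of 0.987 to 1.02. The authors' log2 ratio has Ctrl as denominator. There were 0 columns of other samples.

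The table holds the rows that the authors called (highest q-value 0.04999, matching a Benjamini-Hochberg adjustment over 15835 genes). Scaling estimated from these rows would rest on genes selected for the comparison, so the authors' size factors were used. Counts were rounded and fitted over the whole table in edgeR 4.0.16 (R 4.3.3, filterByExpr, which left 4640 rows and removed 16), with adjustment over 15835 genes and a threshold of 0.05. Dispersions are those of called genes, and edgeR's adjusted p-values differed from the authors' q-values in both directions. The authors' q-value was larger for most mitochondrial members, such as Mrpl1 (0.0357 against 0.00253 in edgeR), Mrps2 (0.0338 against 0.00384) and Mrps12 (0.0413 against 0.00307). For these edgeR was the less strict. The authors' q-value was smaller for a few, such as Mrpl34 (1.91e-17 against 3.89e-14 in edgeR). Among cytosolic members it went both ways, and it was smaller for Rpl12 (7.22e-19 against 5.44e-11). Fold changes and standard errors are from this fit; levels are TPM. Other scalings, no filter, DESeq2 1.42.0, limma-voom and limma-trend (limma 3.58.1) on log2(FPKM + 1) and log2(FPKM + 0.1), the replicate number as a block, each library left out, counts rounded up and adjustment over the rows alone were the alternatives. The scripts were checked on simulated counts.

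Replicates of a group differed by more than counting alone would give (median chi-square of gene counts between library pairs 0.573 to 0.795, against 0.455). The members, gene lists, level bins, gene annotations and motifs were chosen with earlier results of these data known. Named in detail are Rpl12, Rpl9, Rpl3, Mrpl34 and Mrps6, in each ribosome and subunit the 3 members with the highest and the 3 with the lowest log2 fold change and the 2 with the highest mean TPM, and up to 4 genes of each related list with the smallest p. Other members may be named with their fold change. Of the cytosolic members, 2 are not reported here by name.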

Additional observations from a re-analysis of the deposited data

How the results depend on the processing

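All 44 mitochondrial members kept a negative fold change and all cytosolic members except Rpl8 kept their direction under every alternative run. Scaling estimated from the deposited rows shifted both sets upward, as it did all rows (by at most 0.09 on the log2 scale). The median log2 fold changes of the cytosolic and mitochondrial members were 0.138 and -0.205 with TMM scaling, 0.175 and -0.169 with RLE scaling, 0.184 and -0.159 with upper-quartile scaling, and 0.144 and -0.1995 with scaling by reads in the rows. They were 0.1421 and -0.2098 on the log2(FPKM + 1) scale and 0.1422 and -0.2138 on the log2(FPKM + 0.1) scale. Rpl8 turned to 0.022 with RLE and to 0.0318 with upper-quartile scaling, neither called (adjusted p = 0.814 and 0.336). With TMM scaling and with scaling by reads it stayed negative without a call. Mitochondrial calls were lost for 1 member with TMM (Mrps2), 2 with scaling by reads (Mrpl1 and Mrps2), 10 with RLE and 12 with upper-quartile scaling. Both of the last took in Mrpl1, Mrpl28, Mrpl46, Mrps2, Mrps12, Mrps17, Mrps18b, Mrps23, Mrps27 and Mrps35, and the second also Mrpl17 and Mrpl49. Over all rows, 2155 rose under each scaling from the rows, and 2332 (TMM), 2270 (reads), 1870 (RLE) and 1730 (upper quartile) fell.

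Leaving out 1 library at a time gave 31 to 34 cytosolic members higher and 2 to 3 lower, and 42 to 44 mitochondrial members lower. The medians ran from 0.0837 to 0.109 and from -0.281 to -0.231. Over all rows, 2127 to 2151 rose and 2455 to 2476 fell. Calls lost in this way were those of Rpl5, Rpl7, Rpl8, Rpl21, Rpl31, Rpl36a, Rplp0, Rps14, Rps15a, Rps27a, Rps3a1, Mrpl46 and Mrps2. Without cKO 2 the cytosolic median was 0.084 and the mitochondrial -0.281.

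Whether the replicate numbers pair the samples cannot be settled with 3 libraries a group. Deviations of libraries with the same number correlated at 0.04, -0.08 and -0.05, and over the members alone at 0.24, -0.06 and 0.08. Those of libraries with different numbers ran from -0.06 to 0.10. With the replicate number as a block, 34 cytosolic members rose, 3 fell and 44 mitochondrial members fell, with medians of 0.10 and -0.25; Rplp0 (adjusted p = 0.0937) and Rps27a (adjusted p = 0.0501) were no longer called. DESeq2 lost Rpl27a (adjusted p = 0.0623). On both FPKM scales Rpl7, Rpl8, Rpl26, Rps14, Mrpl1, Mrpl17 and Mrps2 were not called. Genes without a row cannot be placed, and changes under the size that 3 libraries a group resolve are not covered.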
